A study of Danio rerio with 16 samples.

Results

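Adult zebrafish hearts that had received no injury, from wild-type fish, are described here gene by gene. They are the 4 WT control libraries of a series of 16, taken by their sample titles. No injured or mutant heart enters a level, share or spread given below. All 16 libraries enter only the choice of genes in the deposited table and its floor. Per the labels, the fish were 6 to 9 months old, each library was made from 3 pooled hearts, and polyadenylated RNA was sequenced after preparation with the TruSeq RNA v2 kit. Sex and strain are not given in the sources used here. Pooling means that the spread between libraries is a spread between groups of fish, not between single fish. It also holds any difference in preparation between libraries, and these parts cannot be told apart here.

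The deposited table gave 14500 genes. Recovered reads were 6363268, 8455393, 9078183 and 7941889 in libraries 1 to 4. The share of a library's reads is used for abundance, and the deposited unit, which is scaled between libraries, for comparing a gene's level between libraries. No transcript lengths were used, so a longer transcript takes more reads than a shorter one at the same number of molecules, and every order of genes below is an order of reads. The median gene stood at 11.9 units and 83.5 reads a library, 161 genes had 0 reads in at least 1 library and 1 gene in all 4. Library 2 stood furthest from the rest, with a median absolute distance of 0.20 on the log2 scale from the mean of the other 3, where libraries 1, 3 and 4 had 0.18, 0.17 and 0.16. Genes of low signal had been left out before deposit, with all 16 libraries in view, and each gene retained had 1.76 units or more in at least 4 of them.

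As background, the heart contracts by sliding actin filaments past myosin in sarcomeres, in cycles set by calcium release from the sarcoplasmic reticulum. The ATP for this comes mostly from mitochondria, whose respiratory chain is encoded partly in the mitochondrial genome and partly in the nucleus. The zebrafish lineage underwent an additional genome duplication, so many genes that are single in mammals have a pair of copies.

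A few genes took a large part of the signal. The most abundant gene, MT-CO1, which encodes a catalytic subunit of cytochrome c oxidase, held 4.51, 4.81, 4.17 and 3.81% of the reads in libraries 1 to 4. It was the top gene in every library. The 10 most abundant genes held 22.4% ± 0.88 (SD, n = 4), the top 100 held 47.6% ± 1.00 and the top 1000 held 75.5% ± 0.58. The first 50% of the reads came from 129, 131, 109 and 128 genes in libraries 1 to 4, and 90% from 3385 to 3585 genes. Library 3 was the most concentrated, and the other 3 lay within a few genes of each other. The 7250 genes of the lower part of the ranking together held between 3.00 and 3.31% of the reads.

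**Figure D1:**
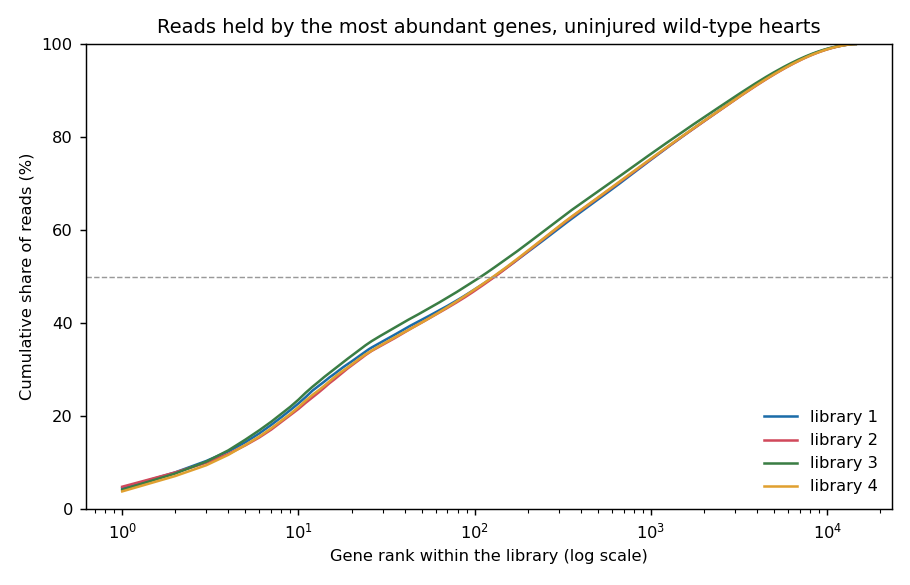
Cumulative share of reads (%) against gene rank (log scale) in each of the 4 libraries, with a dashed line at 50%. The 4 curves nearly coincide and cross 50% between 109 genes (library 3) and 131 genes (library 2).

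The leading genes were those of contraction, of the mitochondrial respiratory chain, of oxygen storage and of red blood cells. The myosin heavy chain gene MYH7, the motor of the thick filament, was second in every library, with 3.39, 3.07, 3.48 and 3.30% of the reads. The myoglobin gene mb, whose product stores oxygen in muscle, held 2.44, 1.89, 2.56 and 2.12%. The actin gene actc1a held 1.89, 2.09, 2.42 and 2.24%, and its range overlapped that of mb. The myosin light chain gene MYL7, a standard marker of zebrafish heart muscle, held 2.07, 1.86, 2.02 and 1.82%. SLC25A5, a carrier that exchanges ADP and ATP across the inner mitochondrial membrane, held 1.37, 1.70, 1.51 and 1.42%. Of the 29 pairs of neighbours among the 30 most abundant genes, 5 had ranges that did not overlap, so most of the order below the second gene is not resolved by 4 libraries.

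Membership of the top was steadier than its order. Of the 10 leading genes, 7 were in the top 10 of every library, and 12 genes were in the top 10 of at least 1. For the top 30 these numbers were 28 and 33, for the top 100 they were 83 and 117, and for the top 1000 they were 891 and 1125. Among the 100 genes of highest mean share, 18 were in the sarcomere and Z-disc list, 13 in the list of the mitochondrial genome's respiratory chain, 10 in the cytoplasmic ribosomal protein list and 6 in the red blood cell list. A further 14 belong to no list used here. Among these 14 were RPSA2, by its symbol a ribosomal protein gene that the list's pattern did not take, at 0.181% of the reads, AQP8, named for an aquaporin family, at 0.190% of the reads, RBPMS2, an RNA-binding protein gene, at 0.166%, and the cyclin G1 gene CCNG1 at 0.142%. These 4 were chosen after their values were seen. The gene of rank 29, ENSDARG00000011538, had no symbol in the tables used and held 0.306% ± 0.035.

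Sarcomere genes were the largest list and the mitochondrially encoded respiratory chain came next. The 84 sarcomere and Z-disc genes held 14.4, 14.6, 15.7 and 14.9% of the reads in libraries 1 to 4 (14.9% ± 0.59, n = 4). The 13 protein genes of the mitochondrial genome held 14.95, 14.6, 13.7 and 12.97% (14.1% ± 0.90). The ranges of these lists overlapped, and together their 97 genes held 28.9% ± 0.75. By contrast, 12530 genes stood in no list and held 35.3% ± 0.73.

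**Figure D2:**
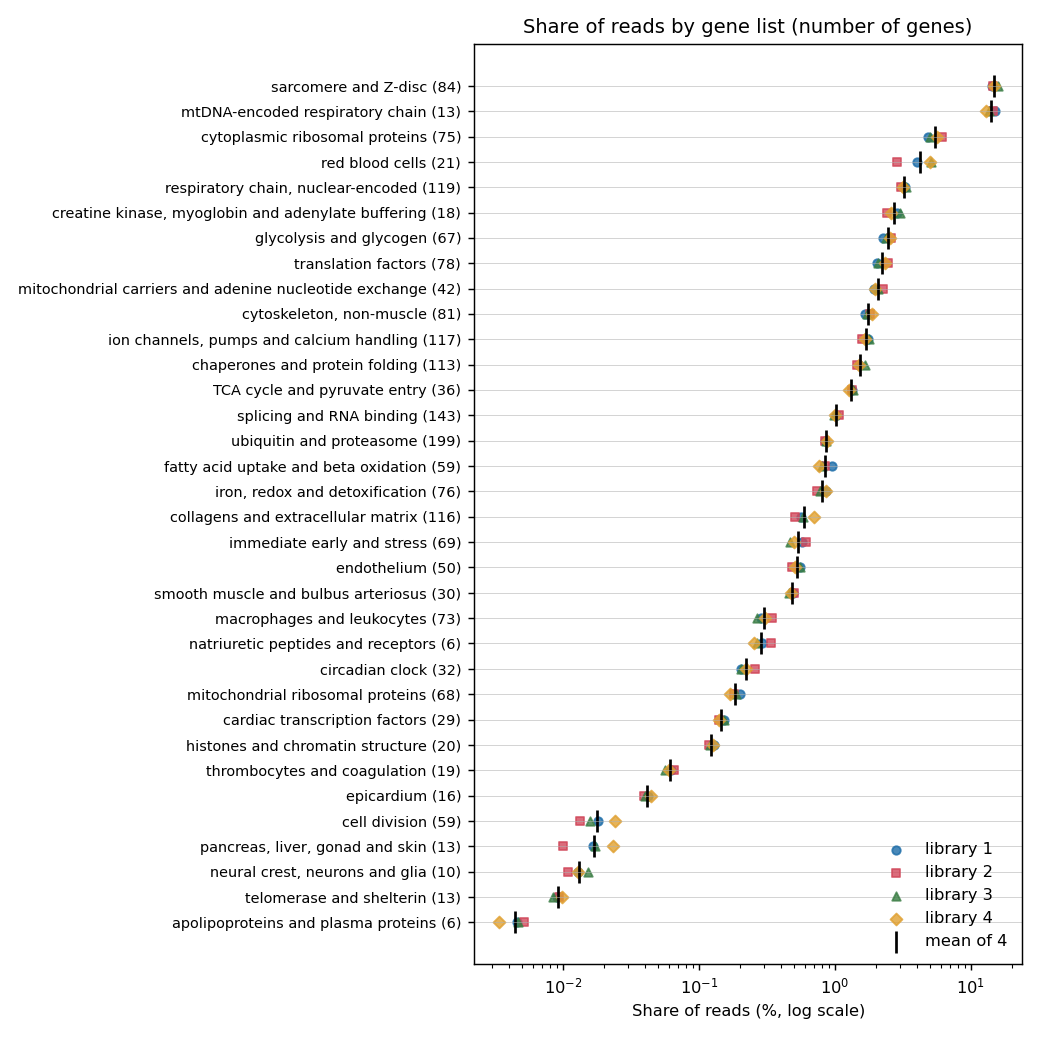
Share of reads (%, log scale) of each of the 34 gene lists, with the number of genes in brackets, in each of the 4 libraries and as their mean. Shares run from 14.9% for sarcomere and Z-disc genes to under 0.01% for plasma proteins, and the 4 libraries lie furthest apart for red blood cells, cell division and the genes of other organs.

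Within the sarcomere, the thick and thin filament genes led. After MYH7, actc1a and MYL7 came the light chain gene cmlc1 with 1.00% ± 0.061 of the reads and the tropomyosin gene tpm4a, which gates the thin filament, with 0.940% ± 0.097. The troponin T gene TNNT2, the tropomyosin-binding part of the calcium switch, held 0.571, 0.616, 0.592 and 0.603%. The troponin C gene tnnc1a, its calcium sensor, held 0.538, 0.542, 0.529 and 0.511%. MYBPC3, a thick filament protein that tunes cross-bridge cycling, held 0.586% ± 0.035. These were among the steadier abundant genes, with a coefficient of variation (CV, the SD over the mean) in deposited units of 3.3% for TNNT2, 3.4% for tnnc1a and 7.3% for MYBPC3. The actin gene ACTA1 (ENSDARG00000055618) was less steady, at 0.471, 0.738, 0.753 and 0.601% and a CV of 21.7%. Library 1 was its lowest.

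Ion channels, pumps and calcium-handling genes held far less, 1.70% ± 0.096 over 117 genes. The sarcoplasmic reticulum calcium pump gene atp2a2a held 0.397% ± 0.043, or 23.3% of that list. The sodium-calcium exchanger gene SLC8A1, which removes calcium across the plasma membrane, held 0.134, 0.126, 0.144 and 0.135%. The phospholamban gene pln1, named for the inhibitor of the calcium pump, held 0.138, 0.136, 0.132 and 0.1254%. These libraries overlapped, so the order of the exchanger and phospholamban was not resolved. The calsequestrin gene CASQ2, a calcium buffer of the sarcoplasmic reticulum, held 0.101% ± 0.017.

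Genes of 6 mitochondrial lists together, 337 genes, held 22.7, 22.3, 21.4 and 20.3% of the reads in libraries 1 to 4. The lists follow pathways, so they also hold genes of cytosolic proteins, such as MDH1 at 0.113% and FABP3 at 0.064%. The mitochondrial genome supplied most of the reads of the 6 lists. For complex I, its 7 mitochondrial genes held 3.39% ± 0.19 and the 36 nuclear genes measured 0.633% ± 0.026. For complex IV, cytochrome c oxidase, the 3 mitochondrial genes held 7.66% ± 0.60 and the 16 nuclear genes 0.606% ± 0.031. For complex V, ATP synthase, the gap was smaller, with 1.71% ± 0.051 from 2 mitochondrial genes and 1.36% ± 0.062 from 17 nuclear genes. Complex II, which has no mitochondrially encoded subunit, held 0.121% ± 0.0056 over 5 genes. In complexes I, IV and V the mitochondrial and nuclear ranges did not overlap in the 4 libraries. In nuclear genes the ATP synthase catalytic subunit gene ATP5F1B led with 0.345, 0.336, 0.381 and 0.362%, followed by ATP5F1A with 0.272, 0.270, 0.317 and 0.304%.

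Fuel genes took smaller shares. Glycolysis and glycogen genes held 2.45% ± 0.16 over 67 genes, and GAPDH, a central glycolytic enzyme gene, held 0.757, 1.04, 0.843 and 0.954%. Aldolase ALDOA (ENSDARG00000011665) held 0.296, 0.302, 0.302 and 0.305%, one of the narrowest ranges among the leading genes. The TCA cycle and pyruvate entry list held 1.32% ± 0.031 over 36 genes, with the malate dehydrogenase gene MDH2 first at 0.231% ± 0.0097. Fatty acid uptake and beta oxidation held 0.843% ± 0.082 over 59 genes. ACADVL, the first enzyme gene of long-chain fatty acid oxidation, held 0.241, 0.192, 0.191 and 0.199%, highest in library 1, and the heart-type fatty acid binding protein gene FABP3 held 0.064% ± 0.010. The creatine kinase, myoglobin and adenylate list held 2.71% ± 0.26, of which mb alone was 83.1%.

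Cytoplasmic ribosomal protein genes held 4.84, 6.13, 5.04 and 5.64% over 75 genes. Their reads were spread evenly, since the leading gene RPS2 took 3.76% of the list, compared with 72.9% for SLC25A5 in the list of mitochondrial carriers. The translation factors held 2.23% ± 0.21 over 78 genes, led by the elongation factor gene eef1a1l1 with 0.584, 0.822, 0.677 and 0.785%. Chaperones held 1.53% ± 0.092, led by the constitutive heat shock protein gene HSPA8 at 0.174% ± 0.026.

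Red blood cell genes were the fourth list by mean share, with 4.05, 2.86, 5.09 and 5.003% of the reads over 21 genes. Library 2 was lowest, and there they held less than the nuclear respiratory chain list (3.05%), while in library 3 they held more than the ribosomal protein list (5.04%). Red cells circulate through the heart and carry haemoglobin, a tetramer of alpha and beta globins. In bulk tissue, fewer cells of a type and less RNA per cell cannot be told apart. The globin gene si:ch211-5k11.8, for which RefSeq (GRCz12tu) gives the synonym hbaa1.2, read 20379, 14821, 26977 and 25927 units in libraries 1 to 4. The globin gene HBE1 (ENSDARG00000089087) read 15495, 12795, 21267 and 19522 units. Both were lowest in library 2, and their CVs were 25.5 and 22.2%. HBE1 is a human-style symbol of the name table, and it does not show at which stage of life the zebrafish gene is used.

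A second globin pair varied more. HBE1 (ENSDARG00000069734) read 2964, 647, 4336 and 3119 units and hbaa2 read 1985, 367, 2520 and 1847 units, with CVs of 55.7 and 54.9%. Without library 2 their CVs were 21.6 and 16.8%, and those of the first pair were 14.5% for si:ch211-5k11.8 and 15.8% for HBE1 (ENSDARG00000089087). Library 2 held the lowest value of each of these genes, so a fall in CV was built in. With another library left out instead, the CVs of the second pair were 61.7 to 70.4%. In library 2 the second pair took 2.26 and 1.28% of all globin reads, and in the other 3 libraries 6.18 to 7.86% and 3.66 to 4.86%. Other red cell genes were also lowest in library 2, including alas2, the first enzyme gene of haem synthesis in red cells, at 1510, 944, 1230 and 1797 units, and the carbonic anhydrase gene cahz at 1352, 936, 1080 and 1550 units. Globin genes are close copies, so their reads may have been split between them by the authors' counting.

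Signs of other cell types were present at lower levels. The endothelial list held 0.523% ± 0.032 over 50 genes, led by SPOCK3, an endocardial marker in zebrafish, at 1790, 1332, 1909 and 1479 units. The von Willebrand factor gene vwf, a clotting protein of endothelium, read 511, 560, 587 and 549 units. Extracellular matrix genes held 0.567, 0.506, 0.585 and 0.703% over 116 genes. The fibronectin gene FN1 (ENSDARG00000006526) read 543, 534, 773 and 1045 units, highest in library 4. The smooth muscle and bulbus list held 0.482% ± 0.018, leukocyte genes 0.2998% ± 0.033, and epicardial genes 0.0413% ± 0.0022. Of the leukocyte share, 30.7% was the gene b2ml, which is not among the leukocyte markers used here. The macrophage markers marco, ptprc and LCP1 read 47.8 ± 6.31, 29.7 ± 4.79 and 25.6 ± 7.89 units. The 6 epicardial markers were all matched and summed to 1922, 2065, 2539 and 2466 units. Most of that sum was the keratin gene krt94, at 1488, 1703, 2003 and 2051 units, which is counted in the cytoskeleton list and not in the epicardial share. The keratin gene krt4 read 220 ± 43.5 units and ALDH1A2, a retinoic acid synthesis gene, 160 ± 31.4 units. The transcription factor genes were lower, with TCF21 at 18.6, 20.4, 17.5 and 16.6 units, TBX18 at 27.1 ± 3.07 and wt1b at 11.1 ± 1.27. By value, krt94 was highest in libraries 3 and 4 and TCF21 in libraries 1 and 2. TCF21 had only 105 to 155 reads a library and a CV of 9.05%, so its order of libraries is not resolved.

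Markers of heart muscle led all marker sums. The 5 of 8 cardiomyocyte markers that could be matched by symbol, 6 genes, summed to 39563, 38743, 42063 and 36476 units. Of 5 skin markers 4 were matched and summed to 79.2, 16.7, 12.7 and 13.1 units, with epcam, a defining epithelial gene, at 0 reads in library 3 and 14 in library 1. For the neutrophil list 3 of 5 markers were matched and summed to 3.71, 3.95, 6.05 and 68.7 units. No marker was matched by symbol for pancreas or gonad, and the part of other organs was not tested from those lists. Many zebrafish names are replaced by human-style symbols in the name table, and genes of low signal are missing from the deposited table. Which of these left a given marker unmatched was not tested. A chymotrypsinogen gene, ctrb.1, which encodes a pancreatic protease and is not among the fixed markers, read 106, 34.4, 110 and 164 units, lowest in library 2. The 1 liver marker matched, tfa, went the other way, with 13.8, 48.5, 19.3 and 26.5 units, highest in library 2.

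Resting hearts held few reads of dividing cells and of telomere maintenance. Cell division genes held 0.0180, 0.0133, 0.0158 and 0.0241% over 59 genes. The replication clamp gene PCNA read 32.01, 20.7, 33.7 and 43.4 units and the proliferation marker mki67 read 6.01, 4.09, 5.41 and 9.83 units. Both were lowest in library 2 and highest in library 4. The 13 telomerase and shelterin genes held 0.00910% ± 0.00057, and 0 of them passed the test of spread beyond counting error described below, which called 35% of all genes and fewer among genes of low level. The dyskerin gene DKC1, part of the telomerase RNA complex, read 15.7 ± 1.62 units, and terfa, named for a telomere-binding protein, 14.7 ± 2.53 units.

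Transcription factors of the heart held a small share, 0.146% ± 0.0071 of the reads over 29 genes. Of these, 11 varied by more than counting error in the test described below, by which 35% of all genes did so. TBX20, a T-box regulator of heart muscle, led with 346, 292, 371 and 295 units. GATA5, a zinc finger factor of heart development, read 202, 192, 220 and 179 units. The transcription factor genes MEF2D and MEIS1 read 143 ± 5.48 and 134 ± 5.64 units and were not called in that test. IRX2, an Iroquois homeobox gene, read 65.5 units in library 3 and 33.3 to 37.8 units in the others. The natriuretic peptide gene nppa, a hormone of heart muscle, reached rank 38 with 2869, 3415, 2716 and 2479 units. Its neighbour in function nppb read 340, 337, 335 and 316 units, a CV of 3.2%.

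In most gene families 1 member took over 50% of the reads measured, which is nearly fixed by arithmetic in families of 2 members. Families were grouped by symbol, so the 2798 genes without a symbol, with 8.42% ± 0.075 of the reads, could not enter any. Every family share here and below is thus a share among the members measured under a matching symbol. Of 54 families with at least 2 measured members, the leading gene took over 90% of the family's reads in 18, between 50 and 90% in 27 and less in 9. In 49 families the leading gene lay apart from the second in all 4 libraries. The median SD of a leading share was 1.15 percentage points, so use of copies varied little between these libraries.

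**Figure D3:**
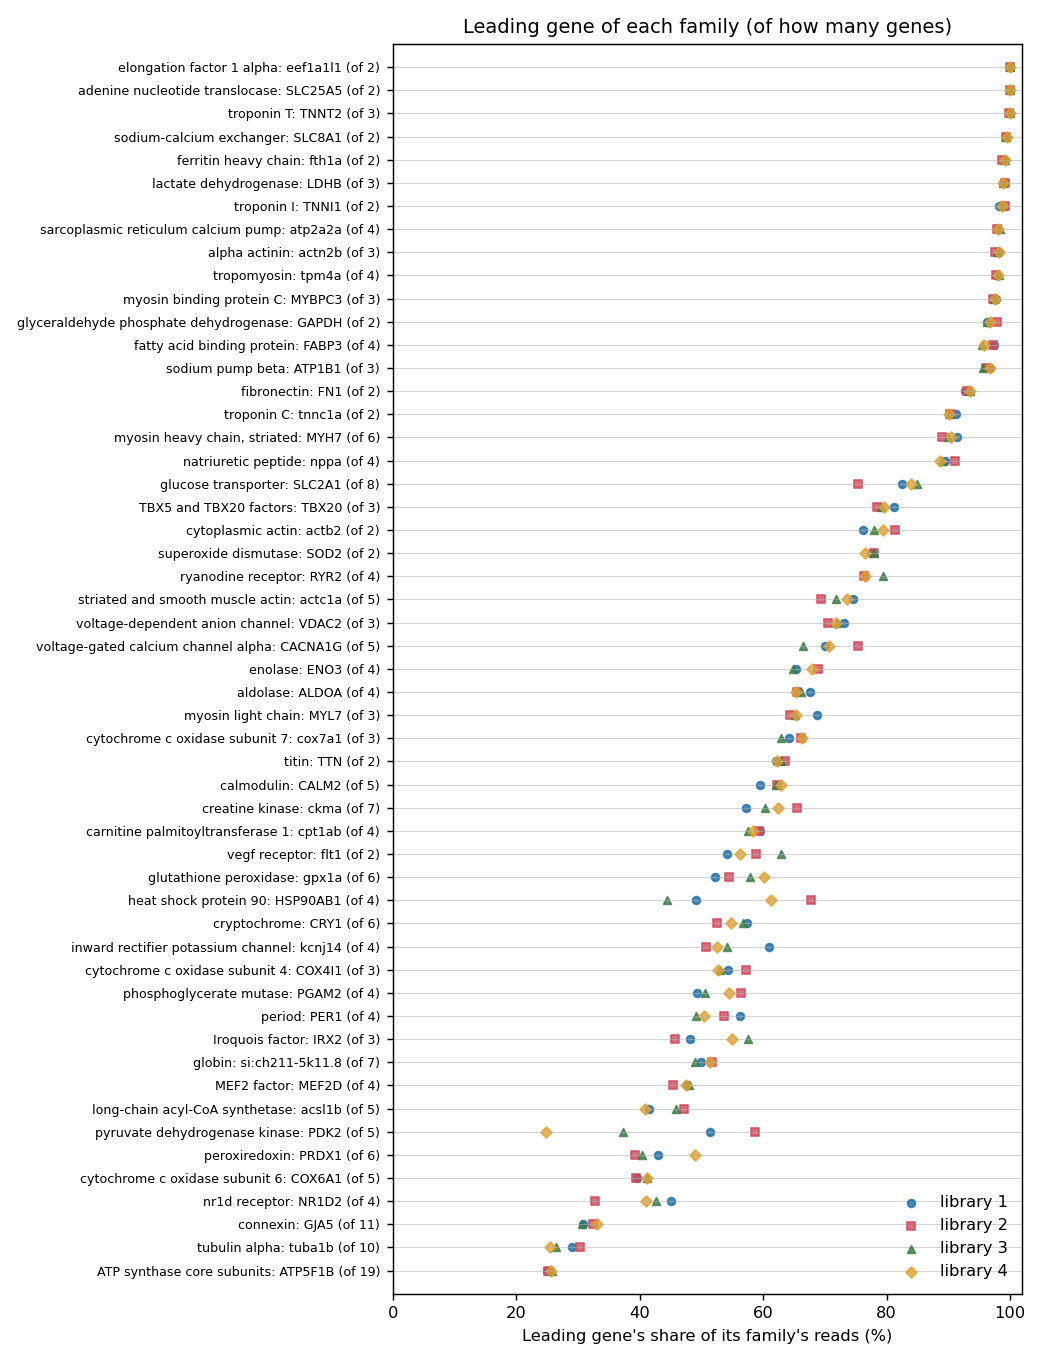
Share (%) of a family's reads taken by its leading gene in each of the 4 libraries, for 53 of the 54 families, with the number of measured members in brackets. Points of most families lie close together, and the pyruvate dehydrogenase kinase and heat shock protein 90 families lie furthest apart.

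In the contractile families, MYH7 took 91.3, 88.9, 90.02 and 90.4% of the reads of 6 striated myosin heavy chain genes. The gene myh6 (ENSDARG00000090637) took 6.19% ± 0.58, and the genes myh7bb and myh7ba took 1.70% ± 0.25 and 1.61% ± 0.20 and overlapped each other. TNNT2 took 99.9% of troponin T reads, TNNI1 98.7% ± 0.42 of troponin I, tnnc1a 90.5% ± 0.53 of troponin C, and tpm4a 98.0% ± 0.24 of tropomyosin. The cardiac isoform of myosin binding protein C, MYBPC3, took 97.5% ± 0.18. Actin was more divided, with 72.4% ± 2.26 for actc1a, 21.3% ± 2.67 for ACTA1 (ENSDARG00000055618) and 4.72% ± 0.54 for ACTC1. Titin, the giant spring of the sarcomere, used both copies, with 62.7% ± 0.61 for ENSDARG00000028213 and 37.3% ± 0.61 for ENSDARG00000000563, a division that differed little between libraries.

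Calcium pumping and exchange each relied on a single member. Shares were 98.1% ± 0.15 for atp2a2a among sarcoplasmic calcium pumps and 99.4% ± 0.083 for SLC8A1 among sodium-calcium exchangers. Ryanodine receptors, the calcium release channels, were split among RYR2 at 77.2% ± 1.46, RYR3 at 13.7% ± 1.32 and a pair of genes named RYR1. Of the voltage-gated calcium channel alpha subunits, the T-type gene CACNA1G took 70.0, 75.4, 66.5 and 70.7% and the L-type gene CACNA1C took 26.2, 22.2, 30.6 and 26.8%. The ranges did not overlap. Connexins, the gap junction proteins, had no dominant member, with GJA5 (ENSDARG00000040065) at 31.7% ± 1.15 overlapping GJA3 at 28.5% ± 3.80, ahead of GJA5 (ENSDARG00000069450) at 21.6% ± 1.66.

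In energy metabolism the muscle creatine kinase gene ckma took 57.2, 65.5, 60.2 and 62.5% of its family. The lactate dehydrogenase gene LDHB took 98.9% ± 0.12 of a family grouped by symbol, whose other measured members were LDHD and ldhbb. Of these, LDHD took 0.972% ± 0.14 and ldhbb 0.0937% ± 0.037, so the share of LDHB is mostly set against LDHD and not against its named copy. No gene named LDHA was among them, so LDHB was not compared with that form. SLC25A5 took nearly all reads of the adenine nucleotide translocases, 99.97% ± 0.027. Carnitine palmitoyltransferase 1, the entry enzyme for fatty acids, used cpt1ab at 58.7% ± 0.92 and CPT1B at 37.6% ± 1.04. Pyruvate dehydrogenase kinases, which switch off glucose oxidation, were the family with the largest spread. PDK2 (ENSDARG00000059054) took 51.4, 58.7, 37.3 and 24.8%, and PDK2 (ENSDARG00000020876) took 34.2, 32.2, 41.8 and 50.3%. The first copy led in libraries 1 and 2 and the second in libraries 3 and 4. The order of their means turned without library 1 (40.3 against 41.4%) and without library 2 (37.9 against 42.1%). In deposited units the first copy read 410, 611, 204 and 116 in libraries 1 to 4. The second copy's larger share in libraries 3 and 4 therefore need not be a higher level. In heat shock protein 90, HSP90AB1 took 49.2, 67.7, 44.3 and 61.2% and hsp90aa1.1 41.03, 26.2, 48.5 and 31.9%, so the order was turned in library 3.

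Libraries resembled each other closely, with Pearson correlations of log2(value + 1) across genes from 0.975 to 0.983 over 6 pairs; genes are not independent replicates. The median gene had a CV of 15.7%, and the common biological coefficient of variation in edgeR was 0.166. A Poisson test of dispersion over the 4 libraries with Benjamini-Hochberg adjustment called 5074 of 14499 genes (35%) as varying by more than counting error. With genes ordered by level into 10 groups of 1450, the share called went from 16.6% in the second lowest group to 83.0% in the highest. The test gains power with reads, whose median was 18.75 and 1330 in those groups, so these shares do not rank variation. In the highest group, the median CV was 9.39%, of which counting error alone would give 2.74%, and in the lowest group it was 41.2% against 32.03%. Without library 2 the count was 3108 genes, the median CV 13.8% and the biological coefficient of variation 0.140. The count and the median CV also fell, by less, without any other library, so not all of their fall belongs to library 2. The biological coefficient of variation rose instead, to 0.171, 0.174 and 0.174 without libraries 1, 3 and 4.

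**Figure D4:**
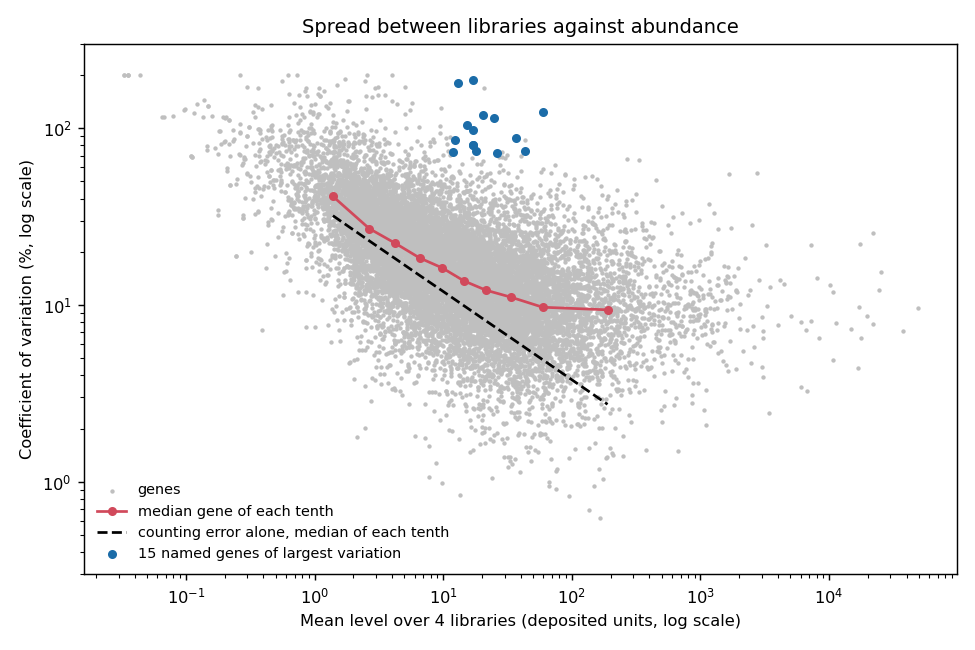
Coefficient of variation (%, log scale) over 4 libraries against mean level (deposited units, log scale) for each gene, with the median of each of 10 groups by level, the median counting error, and the 15 named genes of largest variation. The median falls from 41.2% to 9.39% and stays above the counting line, and the 15 named genes lie between 72.6 and 189%.

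Some lists varied as a block. Over all tested genes, 25.9, 29.1, 22.6 and 22.4% were highest in libraries 1 to 4, and 26.3, 27.1, 24.1 and 22.5% were lowest in them. Of 75 cytoplasmic ribosomal protein genes, 65 were highest in library 2 and 59 lowest in library 1. Of 21 red blood cell genes, 18 were lowest in library 2. Of 13 mitochondrially encoded genes, 9 were highest in library 1 and 11 lowest in library 4, and of 68 mitochondrial ribosomal protein genes 35 were highest in library 1 and 41 lowest in library 4. Of 59 cell division genes, 37 were highest in library 4 and 34 lowest in library 2. Of 116 matrix genes, 50 were highest in library 4 and 62 lowest in library 2. Fatty acid genes had 32 of 59 highest in library 1, and leukocyte genes had 38 of 73 highest in library 2. These leading libraries were the same under the authors' scaling, library totals, edgeR's TMM and DESeq2's size factors. Genes of a list are read from the same 4 RNA pools, so such counts describe these libraries and carry no test.

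A smaller number of genes stood out in 1 or 2 libraries. By Dixon's criterion, 195 of 3567 genes above the median level with spread beyond counting error had 1 library apart from the other 3 (5.47%), and chance gives about 5%. The lysozyme gene lyz, a granule protein of neutrophils in zebrafish, read 1.59, 0.264, 1.03 and 65.6 units, 467 reads in library 4 and at most 9 elsewhere. The nephrosin gene npsn, a metalloprotease gene of neutrophils in zebrafish, read 0.354, 1.84, 1.42 and 48.6 units. Both were far higher in library 4. The neutrophil list was led by lyz there, while MMP9 read 1.24, 2.90, 3.35 and 1.55 units and mmp13a 0.884, 0.791, 1.67 and 1.55 units. By value both were highest in library 3. MMP9 had only 7 to 26 reads a library and mmp13a 5 to 13, so their highest library is not resolved. Without library 4 the CV was 69.3% for lyz and 63.7% for npsn, down from 189 and 182%.

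The coagulation factor XIII gene F13A1 read 83.6, 153, 1.16 and 0.843 units, with 473 and 1159 reads in libraries 1 and 2 and 9 and 6 reads in libraries 3 and 4. The other factor XIII gene, f13a1b, read 27.9, 26.8, 28.7 and 37.4 units and did not split in this way. The transferrin receptor gene tfr1b read 25.1, 7.91, 0.386 and 15.9 units, lowest in library 3. The immediate early gene FOSB read 40.1, 45.1, 8.62 and 11.1 units, high in libraries 1 and 2. STEAP4, a metalloreductase gene, read 14.1, 83.9, 19.2 and 29.5 units, highest in library 2. Without library 2 the CV of STEAP4 went from 87.6 to 37.4%, and without library 3 that of tfr1b went from 86.2 to 52.8%.

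Of the 15 named genes of largest variation, several were highest in library 1. The serine synthesis gene PSAT1 read 38.9, 8.30, 5.66 and 8.01 units, the asparagine synthetase gene ASNS 91.6, 32.02, 25.2 and 25.3 units, and the neutral amino acid transporter gene SLC1A4 56.6, 6.98, 6.56 and 11.5 units. The stress sensor gene sesn2 read 37.7, 10.3, 9.40 and 14.5 units. The epithelial keratin gene krt5 was also highest in library 1, at 67.4, 12.7, 8.49 and 10.54 units, and it makes up most of the skin marker sum given above. Of the other skin markers, cldni read 5.66, 1.05, 0.257 and 0.281 units and and1 read 3.71, 2.64, 3.99 and 2.11 units. The part of skin cells in the values of library 1 was not tested. Without library 1 the CV went from 74.0 to 14.2% for ASNS, from 104 to 19.7% for PSAT1, from 119 to 32.9% for SLC1A4, from 74.2 to 23.8% for sesn2 and from 115 to 19.7% for krt5. The remaining named genes of large variation were MYO3A (CV 98.0%), hapln1a (80.9%), GPM6A (80.3%) and BSCL2 (73.3%). GPM6A had a CV of 37.9% without library 2 and BSCL2 of 31.5% without library 3. The genes of large variation named here and above were taken for their CVs. For these genes each library left out held the gene's highest value, or for tfr1b the lowest, so a fall in CV was built in.

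**Figure D5:**
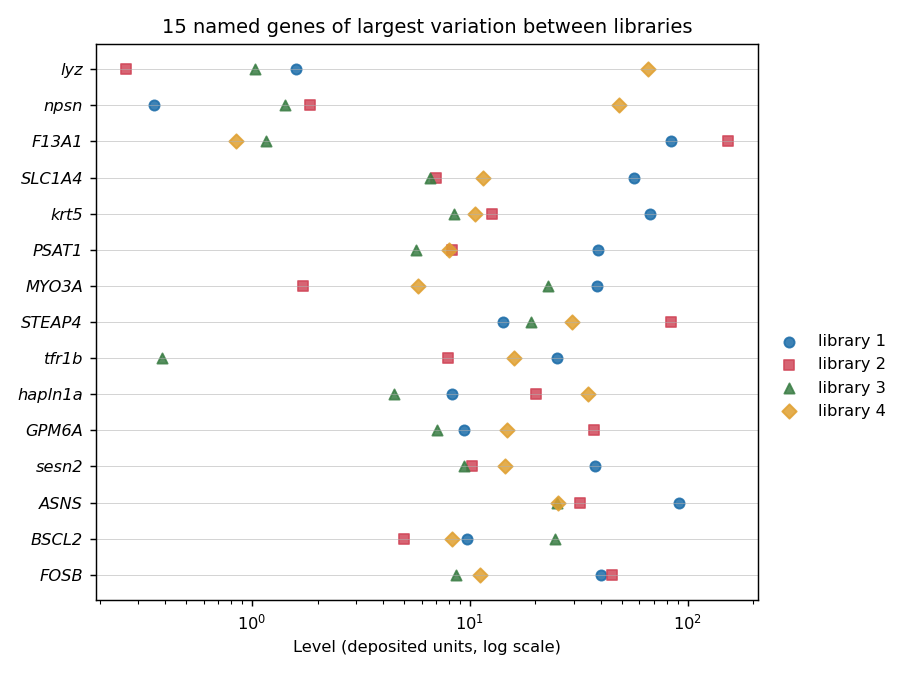
Level (deposited units, log scale) in each of the 4 libraries for the 15 named genes of largest CV among genes above the median level. The genes lyz and npsn stand high in library 4, F13A1 in libraries 1 and 2, and SLC1A4, krt5, PSAT1, sesn2 and ASNS in library 1.

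At the other end, 10 genes stood out for the smallest CVs among the more abundant genes. CDC42, a small GTPase gene of cell polarity, read 165.3, 165.1, 166.8 and 164.4 units, a CV of 0.620%. The methylmalonyl-CoA mutase gene MMUT read 136.3, 136.8, 134.6 and 136.1 units (0.689%). The others were znf318, prdx5, TRIP12, KCTD10, FLI1, NUP98, CEP350 and FXR2, with CVs from 0.914 to 1.18%. Counting error alone would give a CV of 2.93% for CDC42 and 3.23% for MMUT, so values this close are the lowest draws among many genes, and they do not rank stability. FLI1, an endothelial transcription factor gene, read 173 ± 1.79 units, which lay within counting error.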

How the data were processed

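RNA was sequenced from uninjured wild-type zebrafish hearts, in 4 libraries of 3 pooled hearts, which the labels call biological replicates. The submitters' processing notes list the build Zv9 and the tools RSEM 1.2.3, CASAVA 1.8.2 and cutadapt, with no role for any. The authors deposited a signal that they had scaled between libraries by a method not stated. In each of the 4 columns 100% of values were whole multiples of 1 step within 0.01 read, so the signal was divided by that step to recover reads, 6363268 to 9078183 a library. Whether RSEM's estimates had first been rounded is unknown. Intervals of counting error cover read sampling only. The table gave no mean or pooled columns, and 0 columns were left unmapped.

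Symbols came from a table of gene names that matched 11702 of 14500 identifiers, and 1219 identifiers shared a symbol, in which case the identifier is given. Close copies may share reads. Strand is not kept by the kit, and reads of a gene and its antisense partner are therefore mixed. The libraries, the 34 gene lists and the 63 families were chosen with earlier results of these data known. The lists are patterns on symbols; after values were seen, patterns were tightened by name, 66 symbols were left out, si:ch211-5k11.8 was added to the red cell list and the globin families were merged. A gene counts in the first list that takes it.

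Named genes were the 30 of highest mean share, up to 4 per list, family members with at least 1% of the family's reads, markers, and the 15 of largest and 10 of smallest CV that had a symbol. Others named say so or illustrate a list. Some genes the rule took are not named, and 1 is not reported here. Spread was tested with a Poisson dispersion test over 4 libraries with 3 degrees of freedom, adjusted by Benjamini-Hochberg over 14499 genes at 0.05. On simulated data, for 14495 genes, it recovered 100% of 200 genes changed 3-fold, with 8 calls among unchanged genes. The changed genes were all drawn from above a floor of reads and raised in 1 library only. Recovery of smaller changes, or at low reads, was not measured. The chi-square per degree of freedom between pairs was 7.22 to 18.5, and no pair of libraries was a duplicate. Tools were Python 3.11.15, scipy 1.17.1, R 4.3.3, edgeR 4.0.16 and DESeq2 1.42.0 (size factors only). Alternatives were leaving out each library, other scalings, thinning, filters, pseudocounts and denominators.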

Additional observations from a re-analysis of the deposited data

Results flagged for a closer look

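Of 151 results checked for 1 library standing apart from the other 3, 15 did (9.93%). The check flags about 5% of groups by chance, but this tally cannot be read against it, since 6 of the 15 are genes taken for their large variation over the same libraries, and the neutrophil and skin marker sums are carried by lyz and krt5. Over genes above the median level with spread beyond counting error, 195 of 3567 (5.47%) stood apart. Library 3 stood apart in concentration, with 49.1% of reads in its top 100 genes and 109 genes for the first 50% of reads. Library 4 stood apart in lyz at 65.6 units, in npsn at 48.6 units and in the neutrophil marker sum at 68.7 units.

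Library 1 stood apart in SLC1A4 at 56.6 units, krt5 at 67.4, PSAT1 at 38.9 and ASNS at 91.6. It also did so in the skin marker sum at 79.2 units, which krt5 leads, and in the troponin C gene tnnc1a at 91.3% of its family. Library 2 stood apart in the red blood cell marker sum at 2246 units, in LDHB at 99.1% of lactate dehydrogenase reads and in fth1a at 98.8% of ferritin heavy chain reads. That marker sum rests on 3 of 7 markers, and the share of the 21-gene red cell list did not stand apart. RYR2 stood apart at 79.4% of ryanodine receptor reads in library 3.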

How the results depend on the processing

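No paired analysis was possible because only 1 group is described. The alternatives per kilobase of coding length were not run, as no lengths were used here. An alternative value stayed if it lay within a fixed fold of the main value for counts, or within an SD for other measures. That SD was taken over libraries for shares, over pairs of libraries for correlations and over the leave-one-out values for CVs. By these rules 591 alternative values stayed and 64 moved. This tally does not measure robustness, since leaving out 1 library cannot move a mean of 4 by more than their SD. The 256 shares of reads and 216 leading shares found with a library left out therefore had to stay. Without mitochondrially encoded genes the top 10 held 20.3%, the top 100 held 40.6% and 50% of reads took 207.75 genes on average. Without the 10 most abundant genes, shares were 8.24% for the mitochondrially encoded list, 1.01% for red blood cells, 9.62% for sarcomere, 4.14% for the nuclear respiratory chain and 6.96% for ribosomal proteins. Thinned to the shallowest library the median CV was 16.7%. The lowest Pearson correlation was 0.970 with a pseudocount of 0.5, 0.985 with 10, and 0.971 above the median level. Leaving out each library gave 3108 to 4335 genes with spread beyond counting error, a median CV of 13.8 to 15.4% and a biological coefficient of variation of 0.140 to 0.174, the lowest without library 2 in each case; the cause was not tested. The leading gene was the same in all 54 families without library 3 or 4 and in 53 without library 1 or 2, where the order of the pair of PDK2 copies reversed (40.3 against 41.4%, and 37.9 against 42.1%). Library totals moved the median gene by at most 0.05 on the log2 scale. Genes under 10 reads on average, 743 in number, carry little precision.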
